A study of Homo sapiens with 18 samples.

Results

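The net change over the whole course of 2D culture was measured in MCF10A cells by setting the 3 libraries labelled 2D T3 (timepoint 3) against the 3 labelled 2D T1 (timepoint 1). The libraries were chosen by the culture and timepoint in their labels, and not by any measured value, and they make up 6 of the 18 libraries of the series. MCF10A is an immortalised, non-malignant human breast epithelial line. In both groups trypsinised cells were plated sparsely on soft polyacrylamide gels coated with Matrigel (an extract of basement membrane rich in laminin), and cells that had not attached after 1 h were removed. All cells then received growth medium with horse serum, EGF, insulin, cholera toxin and hydrocortisone. Both groups share the line, the substrate and the medium, and the labels set them apart by timepoint. The protocol lists harvests at 3, 12 and 21 h after plating, and the hours are assigned to timepoints 1, 2 and 3 here by order alone. The 3D groups, also with 3 libraries at each timepoint, received the same medium with 2% Matrigel, which surrounds the cells.

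Trypsin removes surface proteins and rounds epithelial cells up, and plating starts a course of attachment, spreading and the rebuilding of contacts. Growth factors and mechanical stress switch on the immediate early genes within minutes, and these are normally switched off again by their own products. Spreading changes the balance of free and polymerised actin, which is read by the MRTF and SRF transcription factors, and the YAP and TAZ factors, which follow cell shape and tension. MCF10A has a basal character: p63 and the basal keratins mark its progenitor-like state, while claudins, occludin, E-cadherin and ELF3 belong to a more differentiated, junction-forming epithelial state. PERK is among the kinases that start the integrated stress response and act through ATF4; the response lowers general translation and induces genes of amino acid supply and of stress-induced death, such as DDIT3 (CHOP), and ATF4 targets do not tell which kinase was active.

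RNA was selected by its poly-A tail and read as 50 bp single ends. Library totals in the file headers ran from 9.31 M to 17.7 M in the 5 of the 6 libraries that have one. The deposited counts sum to 49.8 M to 87.6 M over the 6, above the header totals, so they were not read as depth, and levels in CPM (counts scaled to a library of fixed size) are compared within a gene only. Between 22746 and 24584 genes had a count in a library. Mitochondrially encoded genes took 0.658% to 1.25% of the counts at timepoint 1 and 0.589% to 0.783% at timepoint 3. The 9 basal and epithelial markers were all expressed, with a sum of 7837 to 14375 CPM at timepoint 1 and 5780.1 to 10171 CPM at timepoint 3. Markers of luminal cells (PGR at 0 in all 6), fibroblasts (COL3A1 at 0 in all 6, the sum being nearly all DCN) and endothelium summed to 12.2 to 14.0, 135 to 156 and 1.22 to 2.01 CPM at timepoint 1, and to 11.3 to 14.8, 151 to 291 and 0.832 to 1.5 CPM at timepoint 3. DCN itself had a log2 fold change of 0.64 (adjusted p = 0.039, and 0.13 without the library described next), and its part and that of the mitochondrial share in the results were not tested. The blood markers PTPRC, CD3E and HBB were at 0 throughout, and CD14 was at 11.3 to 13.8 CPM at timepoint 1 and 9.44 to 19.5 CPM at timepoint 3. The labels do not say that the replicates came from separate cultures, so the p-values speak of the scatter among these libraries, which may be technical. In bulk RNA, fewer cells of a kind and less RNA per cell cannot be told apart.

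The library labelled 2D T3 replicate 1 stood apart from its group. It has no column in the authors' log2 CPM table and its labels list the raw counts alone. Across genes, its log2 CPM correlated at 0.987 with 3D T3 replicate 1, and at 0.980 and 0.978 with 3D T3 replicates 2 and 3. With replicates 2 and 3 of its own group it correlated at 0.964 and 0.973, and these with each other at 0.982. Against 3D T3 replicates 2 and 3, 2D T3 replicate 3 correlated at 0.978 and 0.977, and 2D T3 replicate 2 at 0.974 and 0.962. Libraries of the same replicate number share a date, so date and culture are mixed in the value of 0.987. A fit without 2D T3 replicate 1 found 290 genes whose change from timepoint 1 to 3 differed between 2D and 3D. At 257 of these 290 (88.6%) the left-out library lay nearer to the mean of 3D T3 replicates 2 and 3 than to the mean of 2D T3 replicates 2 and 3, against 58.0% of all 18111 genes tested. The libraries behind both means were in the fit that chose the 290 genes. That choice favours genes at which the means lie apart, so 88.6% and 58.0% are not a like comparison. The label was kept, and gene list counts are given with all 6 libraries and again "without replicate 1", that is without this one. A gene described as having risen or fallen, for which no such value is printed, was also called in the same direction without it.

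**Figure D1:**
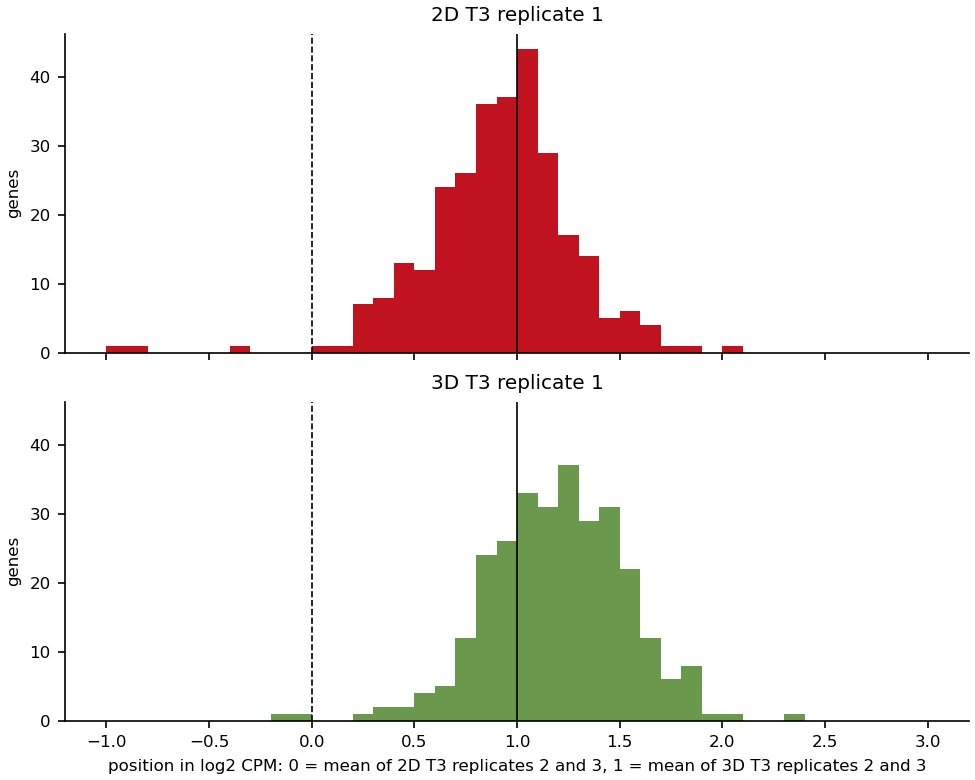
Number of genes (y axis) by position on the x axis, in log2 CPM scaled for each gene so that 0 is the mean of 2D T3 replicates 2 and 3 and 1 is the mean of 3D T3 replicates 2 and 3, for the 290 genes chosen without the library labelled 2D T3 replicate 1 (upper panel, that library; lower panel, 3D T3 replicate 1; values past the ends are drawn in the end bins). The upper panel is centred on a median of 0.95, next to the 3D mean, and the lower on 1.21. The library of the lower panel and the libraries behind both means were in the fit that chose these genes. None of them is therefore an independent reference. Over all 18111 genes tested the medians were 0.75 and 1.13.

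Over the whole course 2402 of 18111 genes changed (13.3%) by edgeR's quasi-likelihood test at an adjusted p under 0.05, with the replicate number as a block. Of these 1197 were higher at timepoint 3 (6.61% of genes tested) and 1205 lower (6.65%). Falls were the larger changes: 591 genes fell and 328 rose by a fold of at least 2, and 196 fell and 88 rose by a fold of at least 4. The 3 libraries of each group did not overlap in CPM at 20.2% of genes tested, with timepoint 3 above at 10.3% and below at 9.87%. The median log2 fold change of all genes tested was 0.02. Without replicate 1 the test called 1954 of 18592 genes (10.5%), 1001 higher (5.38%) and 953 lower (5.13%), and 1684 genes were called in the same direction both with and without it. With no replicate block 958 genes were called (5.29%), 407 higher (2.25%) and 551 lower (3.04%). With only the 6 libraries of these groups in the fit 475 genes were called, 120 higher and 355 lower, a share of higher calls well below that of the main fit.

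**Figure D2:**
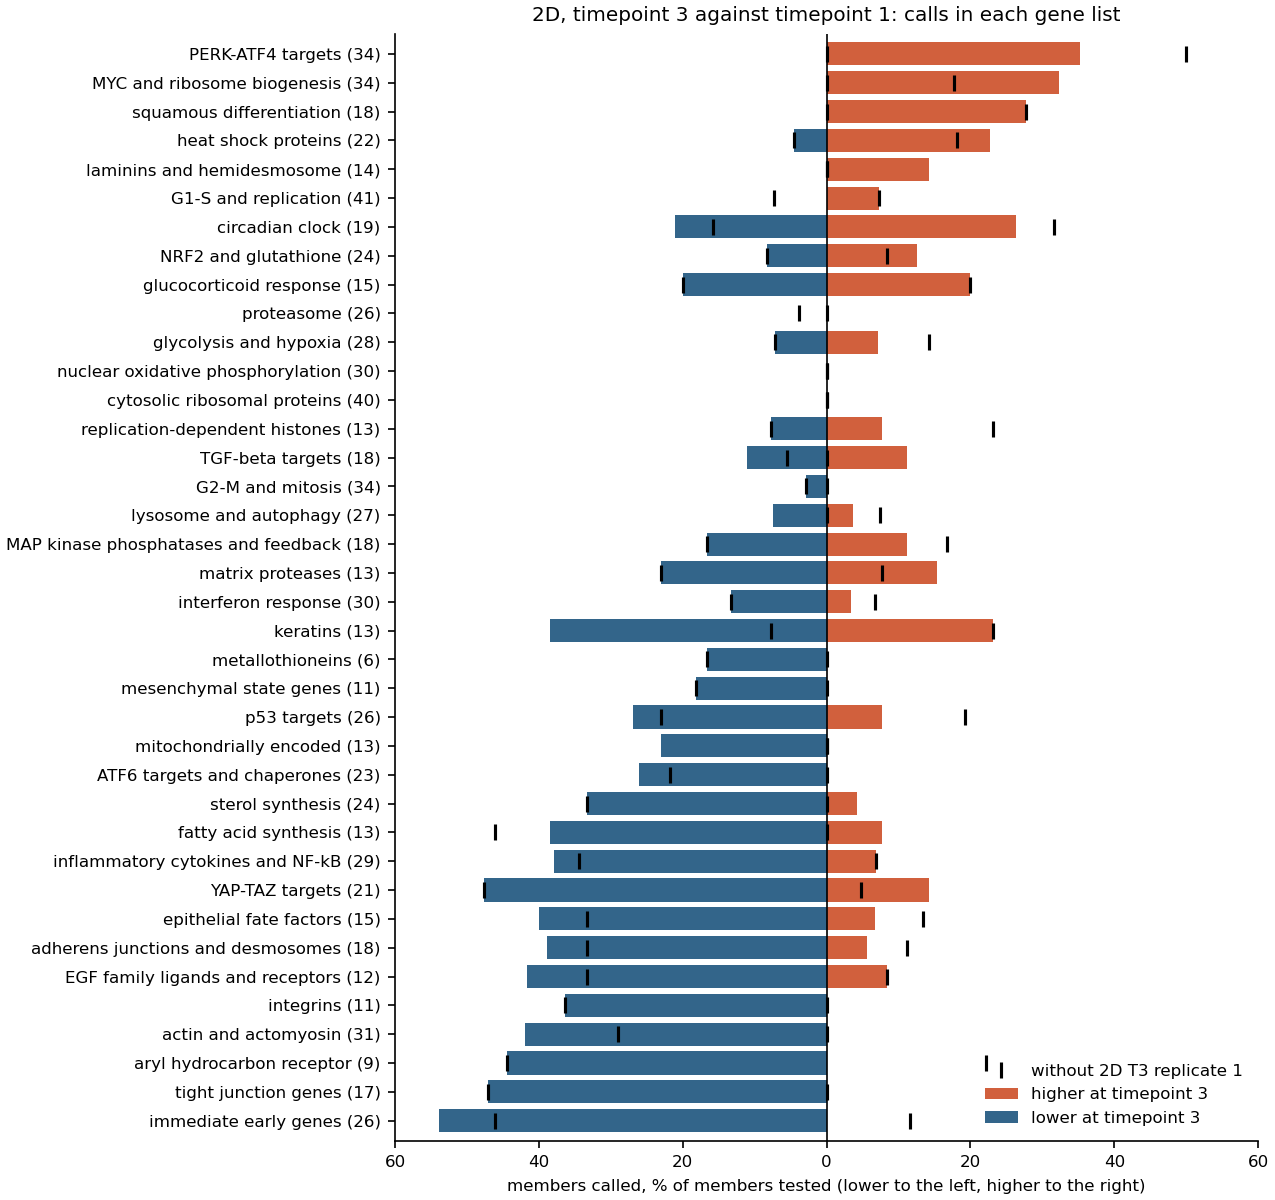
Share of each gene list called at timepoint 3 against timepoint 1, in percent of members tested (number in brackets), lower to the left and higher to the right. Black ticks give the same shares without replicate 1. Immediate early, tight junction and actin genes lie to the left, and PERK-ATF4 targets, ribosome biogenesis and squamous genes to the right.

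Part of the cytokine and immediate early genes were lower at timepoint 3. LIF, a cytokine of the interleukin-6 family, was at 15.3, 19.8 and 22.5 CPM at timepoint 1 and 0.58, 0.889 and 0.576 CPM at timepoint 3 (replicates 1, 2 and 3 in this and all later series). Its groups lay far apart, and it fell (log2 fold change -4.82, SE 0.27, adjusted p = 1.6e-07; -4.82, adjusted p = 1.9e-06 without replicate 1). Of the 29 genes of inflammatory cytokines and NF-kB signalling 11 fell and 2 rose (median log2 fold change -0.45), and 10 fell and 2 rose without replicate 1. CXCL10, a chemokine of the interferon response, stood at 1.69, 1.44 and 1.56 CPM at timepoint 1 and 0.063, 0.0193 and 0.0268 CPM at timepoint 3 (log2 fold change -5.30, adjusted p = 1.6e-06; -5.94, adjusted p = 8.8e-06 without replicate 1). TNFAIP6, a hyaluronan-binding protein induced in inflammation, and the cytokine IL24 fell by 2.92 and 2.59 on the log2 scale, with no overlap between groups. The neutrophil chemokine CXCL2 went the other way, from 0.289, 0.71 and 0.831 to 0.895, 6.48 and 2.75 CPM (log2 fold change 2.35, SE 0.55, adjusted p = 0.011), with replicate 1 the lowest of the 3 later libraries.

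Of the 26 immediate early genes 14 fell and none rose, with a median of -0.67. EGR1, a zinc finger factor induced by serum and by stretch, was at 31.7, 54.7 and 48.9 CPM at timepoint 1 and 12.4, 18.1 and 13.3 CPM at timepoint 3 (log2 fold change -1.62, SE 0.19, adjusted p = 5.4e-05). The orphan nuclear receptor NR4A1 went from 80, 114 and 151 to 4.07, 20 and 15.1 CPM (log2 fold change -3.25, SE 0.35, adjusted p = 2.8e-05), and EGR3 from 4.72, 5.89 and 10.5 to 0.315, 0.908 and 0.696 CPM. Every library of timepoint 3 was below every library of timepoint 1 for these genes. FOS did not follow them: it stood at 64.3, 90.2 and 78.1 CPM at timepoint 1 and 19.8, 79.2 and 61.2 CPM at timepoint 3 (log2 fold change -0.64, adjusted p = 0.11), and MYC was at 883, 714 and 865 CPM at timepoint 1 and 651, 788 and 796 CPM at timepoint 3 (adjusted p = 0.55). In FOS replicate 1 was the lowest library, with replicate 3 just below the range of timepoint 1 and replicate 2 inside it. Without replicate 1, 12 members fell and 3 rose. The 3 were ATF3 and, named after their values were seen, NR4A2 and KLF4; ATF3 is described with the stress genes.

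Feedback regulators and ligands of the EGF receptor changed in both directions. ERRFI1, an inhibitor of the EGF receptor, fell from 113, 112 and 89.7 to 43.7, 55.9 and 41.9 CPM (log2 fold change -1.15, SE 0.11, adjusted p = 1.3e-05). The ERK phosphatase DUSP5 and the pathway inhibitor SPRY4 fell by 1.09 and 1.02 on the log2 scale. In the list of 18 phosphatases and feedback genes 3 fell and 2 rose, and without replicate 1, 3 and 3. Of 12 ligands and receptors of the EGF family 5 fell and 1 rose, without replicate 1, 4 fell and 1 rose, and with no replicate block 2 fell and 1 rose. The ligand TGFA went from 23.5, 25.1 and 29.4 to 12.8, 10.9 and 14.6 CPM (log2 fold change -1.02, SE 0.12, adjusted p = 7.2e-05), and the receptor ERBB3 from 35.5, 56.6 and 43.7 to 5.09, 18.9 and 13.5 CPM (log2 fold change -1.97, SE 0.25, adjusted p = 1.1e-04). The ligand EREG rose, with values of 1.54, 1.22 and 1.39 CPM before and 4.09, 3.29 and 2.14 CPM after. The ligand HBEGF fell by 0.94 on the log2 scale. The receptor EGFR and the ligand AREG, named after their values were seen, fell by 0.77 and 0.60 (adjusted p = 0.037 and 0.044). Without replicate 1 their adjusted p values were 0.013 and 0.066.

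The urokinase activator, its receptor and an inhibitor all fell. PLAU, the urokinase plasminogen activator that starts pericellular proteolysis in wound edges, was at 102, 96.6 and 97.6 CPM at timepoint 1 and 5.98, 10.3 and 9.84 CPM at timepoint 3 (log2 fold change -3.53, SE 0.22, adjusted p = 2.7e-07; -3.32, adjusted p = 1.9e-06 without replicate 1). Its receptor PLAUR was at 89.1, 88.1 and 157 CPM at timepoint 1 and 19.5, 24.4 and 32.1 CPM at timepoint 3 (log2 fold change -2.12, SE 0.15, adjusted p = 9.2e-07). The tissue activator PLAT fell by 0.90. The inhibitor of the system SERPINB2 was at 17, 16.7 and 59.3 CPM at timepoint 1 and 0.504, 0.889 and 1.71 CPM at timepoint 3 (log2 fold change -4.80, SE 0.40, adjusted p = 2.8e-06), with replicate 3 of timepoint 1 well above the other 2. SERPINB10, its neighbour in the clade B serpin cluster, fell from 2.82, 3.31 and 10.1 to 0.126, 0.0387 and 0.214 CPM, and reads that such paralogs can share make the split between them uncertain. The inhibitor SERPINE2 rose from 23.4, 20.5 and 10.5 to 60.6, 33.4 and 25 CPM (log2 fold change 1.12, SE 0.18, adjusted p = 7.9e-04; adjusted p = 0.18 with no replicate block). Of the 13 matrix proteases and inhibitors tested 3 fell and 2 rose, without replicate 1, 3 fell and 1 rose, and with no replicate block 3 fell and none rose.

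Of 11 integrin genes 4 fell and none rose, with a median of -0.31. Without replicate 1 the count was also 4 (-0.60), and with no replicate block it was 2. ITGA2, a subunit of the collagen receptor, was at 40.6, 97.3 and 53.2 CPM at timepoint 1 and 23.1, 19.2 and 16.3 CPM at timepoint 3 (log2 fold change -1.61, SE 0.30, adjusted p = 0.0023), and ITGA5, a subunit of the fibronectin receptor, at 291, 331 and 298 CPM at timepoint 1 and 215, 121 and 77.8 CPM at timepoint 3 (log2 fold change -1.26, SE 0.30, adjusted p = 0.012; adjusted p = 0.14 with no replicate block). The lowest library of timepoint 1 was above the highest of timepoint 3 for both. Of 14 laminin and hemidesmosome genes 2 rose: COL17A1, a hemidesmosome collagen, went from 95.4, 157 and 133 to 233, 232 and 228 CPM (log2 fold change 0.90, SE 0.22, adjusted p = 0.016), and COL7A1, the anchoring fibril collagen, rose by 1.31. Neither passed without replicate 1 (adjusted p = 0.082 and 0.054) or with no replicate block (adjusted p = 0.13 and 0.075). LAMB3, a chain of laminin-332, had overlapping groups (adjusted p = 0.29). Fibronectin (FN1) was at 276, 408 and 135 CPM at timepoint 1 and 1779.7, 368 and 227 CPM at timepoint 3, replicate 1 alone lying above the range of timepoint 1 (adjusted p = 0.081; log2 fold change 0.39 without replicate 1).

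The cytoskeleton was described by a list of actin and actomyosin genes. Of its 31 members 13 fell and none rose, 30 had a log2 fold change below 0, and the median was -0.45. Without replicate 1, 9 fell, and with no replicate block 7. VCL, the focal adhesion protein vinculin, was at 205, 210.1 and 210.3 CPM at timepoint 1 and 116, 108 and 115 CPM at timepoint 3 (log2 fold change -0.88, SE 0.09, adjusted p = 2.8e-05), with narrow spread in both groups. SRF, the factor that binds CArG boxes of cytoskeletal genes, went from 21.3, 22.5 and 25.4 to 11.3, 14 and 12.6 CPM (log2 fold change -0.88, SE 0.13, adjusted p = 5.5e-04). The calponin CNN3 and the tropomyosin TPM4 fell by 1.23 and 0.98. FLNA, the actin crosslinker filamin A, was at 2293, 2556 and 2071 CPM at timepoint 1 and 1573, 1744 and 1694 CPM at timepoint 3 (log2 fold change -0.45, SE 0.13, adjusted p = 0.03), and it did not pass without replicate 1 (adjusted p = 0.087) or with no replicate block (adjusted p = 0.24).

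The CArG box, the site of SRF, was searched on both strands in the 250 bases before the most upstream RefSeq start of each gene (GRCh38.p14). It was found in 314 of 27303 promoters (1.15%), in 6 of 27 actin genes that were tested and have a promoter entry, and in 5 of the 11 with an entry among the 13 that fell. The 5 promoters are shown because these genes fell and hold the motif, and the EGR1 promoter because it holds 2 copies. EGR1 was the only one of 10 immediate early genes called lower with an entry that held it. Capitals mark the motif. ACTG1 (gamma actin) and CNN2 (a calponin), named for the motif after their values were seen, had log2 fold changes of -0.94 and -0.81 (adjusted p = 0.0087 and 0.0046). The stretches are chr6:43171199-43171268, plus strand, for SRF; chr17:81512844-81512933, minus strand, for ACTG1; chr19:16067325-16067414, plus strand, for TPM4; chr19:1026479-1026568, plus strand, for CNN2; chrX:154374679-154374768, minus strand, for FLNA; and chr5:138465334-138465445, plus strand, for EGR1. A match describes the letters only, not a bound site.
SRF: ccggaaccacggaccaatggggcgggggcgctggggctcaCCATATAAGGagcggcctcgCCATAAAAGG
ACTG1: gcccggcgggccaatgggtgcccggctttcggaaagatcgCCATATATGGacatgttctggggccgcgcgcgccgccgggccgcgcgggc
TPM4: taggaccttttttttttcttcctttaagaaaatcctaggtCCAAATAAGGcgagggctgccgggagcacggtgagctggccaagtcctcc
CNN2: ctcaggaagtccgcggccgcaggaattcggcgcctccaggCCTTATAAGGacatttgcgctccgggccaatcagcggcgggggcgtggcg
FLNA: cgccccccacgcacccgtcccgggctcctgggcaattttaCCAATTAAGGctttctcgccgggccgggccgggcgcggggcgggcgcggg
EGR1: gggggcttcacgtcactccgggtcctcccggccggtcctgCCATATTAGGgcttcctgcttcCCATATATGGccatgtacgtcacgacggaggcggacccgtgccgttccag

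In the SRF promoter the first motif starts 30 bases before the start site and the second ends 1 base before it, and in EGR1 the pair runs from 105 to 74 bases before it. In ACTG1 and FLNA the motif starts 94 bases before the start site, in CNN2 89 and in TPM4 173. The genes shown, all taken from members called lower, fell by between 0.45 (FLNA) and 1.62 (EGR1) on the log2 scale. Not every tested actin gene with the motif was called lower.

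Of 21 targets of YAP and TAZ 10 fell and 3 rose, with a median of -0.33, and without replicate 1, 10 fell and 1 rose, and with no replicate block 6 fell and 1 rose. CCN2, connective tissue growth factor, was at 12.6, 8.86 and 6.04 CPM at timepoint 1, 2.31, 1.19 and 1.32 CPM at timepoint 2 and 1.79, 1.16 and 1.18 CPM at timepoint 3 (log2 fold change -2.69, SE 0.32, adjusted p = 6.6e-05; -2.61, adjusted p = 7.9e-04 without replicate 1). CCN1, its matricellular relative, was at 18.1, 13.7 and 11.4 CPM at timepoint 1 and 5.17, 3.44 and 3.38 CPM at timepoint 3 (log2 fold change -1.84, SE 0.25, adjusted p = 2.2e-04). Both were lower in every later library. F3, tissue factor, and GADD45A, a stress-induced growth arrest gene, fell by 1.94 and 2.03 on the log2 scale.

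The aryl hydrocarbon receptor is a ligand-activated factor that induces enzymes of xenobiotic metabolism, and its best known target, the cytochrome P450 CYP1A1, fell to a small remainder. CYP1A1 was at 151, 124 and 189 CPM at timepoint 1, 1.44, 1.12 and 1.65 CPM at timepoint 2 and 0.718, 4.35 and 2.3 CPM at timepoint 3 (log2 fold change -6.10, SE 0.57, adjusted p = 8.1e-06; -5.60, adjusted p = 3.4e-05 without replicate 1). Of the 9 receptor genes tested 4 fell, with no overlap between the groups, and none rose, while without replicate 1, 4 fell and 2 rose. The 4 were CYP1A1, the related CYP1B1 at 102, 147 and 91.7 against 23.3, 42.9 and 16.6 CPM (adjusted p = 0.0011), and the feedback repressors TIPARP and AHRR, with log2 fold changes of -1.15 and -0.93 (AHRR adjusted p = 0.059 with no replicate block). The receptor's core site GCGTG, searched on both strands, was in the promoters of the 3 of these 4 that have an entry. Of all tested receptor genes with an entry it was in 4 of 7. It is common, being found in 31.9% of all promoters. The CYP1A1 promoter is shown since this gene had the largest change, from chr15:74725541-74725625, minus strand, with the core in capitals 57 bases before the start.
CYP1A1: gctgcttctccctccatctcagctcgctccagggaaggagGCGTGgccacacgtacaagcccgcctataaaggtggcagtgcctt

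Part of the junction genes fell. Of 17 tight junction genes 8 fell and none rose, and the same counts held without replicate 1 and with no replicate block; the median was -0.29. CLDN4, a claudin of differentiated epithelium, was at 44.9, 42 and 115 CPM at timepoint 1, 5.04, 6.29 and 10.8 CPM at timepoint 2 and 0.139, 3.23 and 8.45 CPM at timepoint 3 (log2 fold change -4.49, SE 0.61, adjusted p = 2.2e-04; -3.84, adjusted p = 2.8e-05 without replicate 1). CLDN1 was at 18.3, 20 and 27.8 CPM at timepoint 1 and 0.806, 3.36 and 4.8 CPM at timepoint 3 (log2 fold change -2.99, SE 0.33, adjusted p = 4.1e-05; -2.51 without replicate 1). CLDN7 and CLDN12, the other claudins tested, named after their values were seen, did not pass, with log2 fold changes of -0.24 and 0.14 (adjusted p = 0.56 and 0.77; 0.12 and 0.20 without replicate 1). For CLDN4 and CLDN1 replicate 1 was the lowest library, and the other 2 were still below all of timepoint 1. OCLN, occludin, the plaque protein CGN and the scaffold TJP1 fell by 3.17, 2.78 and 1.30. TJP1 values were even, at 153, 206 and 187 CPM at timepoint 1 and 76.2, 71.7 and 72.7 CPM at timepoint 3. Of 18 genes of adherens junctions and desmosomes 7 fell and 1 rose (PKP3, a desmosomal plakophilin, named after its value was seen), without replicate 1, 6 fell and 2 rose, and with no replicate block 5 fell and none rose. CDH1, E-cadherin, fell from 153, 264 and 237 to 62.7, 109.7 and 107 CPM (log2 fold change -1.23, SE 0.21, adjusted p = 0.0012), and the desmosomal cadherin DSG3 by 1.44.

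Transcription factors of epithelial fate split. OVOL1, a repressor that keeps epithelial identity, was at 4.76, 4.75 and 9.22 CPM at timepoint 1 and 0.517, 0.367 and 0.643 CPM at timepoint 3 (log2 fold change -3.56, SE 0.26, adjusted p = 9.2e-07). SOX9 fell from 15, 13.9 and 24 to 0.869, 2.05 and 2.77 CPM (log2 fold change -3.26, SE 0.25, adjusted p = 1.4e-06). ELF3, an ETS factor of differentiated epithelium, was at 62.7, 56.7 and 126 CPM at timepoint 1 and 0.907, 12.3 and 17.1 CPM at timepoint 3 (log2 fold change -3.23, SE 0.57, adjusted p = 0.0017; -2.59, adjusted p = 3.0e-04 without replicate 1). Its replicate 1 was far below the other libraries of timepoint 3. TP63, the basal master regulator, rose: it was at 14.2, 26.5 and 26.4 CPM at timepoint 1, 32.8, 57.2 and 71.9 CPM at timepoint 2 and 51.6, 57.6 and 62.8 CPM at timepoint 3 (log2 fold change 1.43, SE 0.17, adjusted p = 5.5e-05; 1.20, adjusted p = 1.6e-04 without replicate 1). Its relative TP73 was at 1.19, 1.17 and 1.19 CPM at timepoint 1, 4.91, 9.41 and 6.52 CPM at timepoint 2 and 7.07, 14 and 12.1 CPM at timepoint 3 (log2 fold change 3.13, SE 0.22, adjusted p = 6.5e-07). Of the 15 fate factors tested 6 fell and TP63 alone rose, and without replicate 1, 5 fell and 2 rose.

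Keratins and squamous genes moved in both directions, and several depend on replicate 1. KRT15, a basal keratin, was at 84.7, 84.4 and 295 CPM at timepoint 1, 493, 615 and 784 CPM at timepoint 2 and 157, 991 and 1143 CPM at timepoint 3 (log2 fold change 2.27, SE 0.40, adjusted p = 0.0017). Replicate 1 was within the range of timepoint 1, and the log2 fold change was 2.74 without it (adjusted p = 9.3e-05); with no replicate block the gene did not pass (adjusted p = 0.066). KRT14 rose by 1.16 with overlapping groups, from 75.5, 64.6 and 216 to 173, 226 and 338 CPM, each replicate being higher at timepoint 3, but not with no replicate block (adjusted p = 0.25). KRT17, also a basal marker and named after its values were seen, fell by 0.97 (adjusted p = 0.024). It had overlapping groups and did not pass without replicate 1 (adjusted p = 0.11). KRT6B, an activation keratin of wounds, fell from 9.63, 7.0 and 17.8 to 1.84, 2.92 and 5.0 CPM (log2 fold change -1.82, SE 0.22, adjusted p = 7.4e-05), and KRT5 was at 5085, 4414 and 8345 CPM at timepoint 1 and 3238, 5387 and 6323 CPM at timepoint 3 (adjusted p = 0.43). KRT16 and KRT6A did not follow KRT6B. KRT16 rose (log2 fold change 1.48, adjusted p = 0.0071, and 1.86, adjusted p = 8.2e-04 without replicate 1). KRT6A, named after its values were seen, had a mean of 713 CPM at timepoint 1 and 701 CPM at timepoint 3 (adjusted p = 0.99). In the 13 keratins 3 rose and 5 fell, and without replicate 1 the counts were 3 and 1, and with no replicate block none rose and 1 fell. Reads that keratins can share make their split uncertain.

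Of 18 squamous differentiation genes 5 rose and none fell, with a median of 0.53 (0.92 without replicate 1), and with no replicate block none passed. SPRR1B, a cornified envelope precursor, was at 0.321, 0.44 and 1.75 CPM at timepoint 1, 4.54, 6.24 and 12.7 CPM at timepoint 2 and 1.05, 8.45 and 17.4 CPM at timepoint 3 (log2 fold change 3.30, SE 0.43, adjusted p = 1.5e-04; 3.78, adjusted p = 1.9e-06 without replicate 1; adjusted p = 0.052 with no replicate block). In replicate 1 it lay inside the range of timepoint 1. The kallikrein KLK11 and SPRR3 had no count at timepoint 1, and were at 0, 0.657 and 0.696 and 0, 0.309 and 0.924 CPM at timepoint 3, so replicate 1 was at 0 for both (adjusted p = 0.0061 and 0.016, and 0.095 and 0.078 with no replicate block).

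Of 34 targets of PERK and ATF4 12 rose and none fell, with a median of 0.43 and 22 not called; without replicate 1, 17 rose and none fell, with a median of 0.62, and with no replicate block 9 rose. DDIT3 was at 7.55, 6.68 and 7.93 CPM at timepoint 1, 16.9, 17.2 and 16.3 CPM at timepoint 2 and 9.32, 39.3 and 34 CPM at timepoint 3 (log2 fold change 1.86, SE 0.36, adjusted p = 0.0029; 2.35, adjusted p = 3.1e-06 without replicate 1). The values of the 3 libraries at timepoint 2 were close together, and at timepoint 3 replicate 1 stood nearer to timepoint 1 than to the other 2. TRIB3, a pseudokinase that dampens ATF4 signalling, was at 16.8, 15.4 and 17.3 CPM at timepoint 1, 37, 46.1 and 45.8 CPM at timepoint 2 and 24, 83.7 and 101 CPM at timepoint 3 (log2 fold change 1.96, SE 0.30, adjusted p = 6.1e-04; 2.40, adjusted p = 1.9e-06 without replicate 1). PSPH, an enzyme of serine synthesis, also passed without that library, with 15.8, 19.1 and 17.3 CPM at timepoint 1 and 28.5, 26.4 and 36 CPM at timepoint 3 (log2 fold change 0.79, SE 0.13, adjusted p = 8.2e-04). SESN2, an inhibitor of mTORC1 signalling, rose by 1.06.

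ATF3 and CHAC1 were called only without replicate 1. ATF3, a stress-induced repressor, was at 9.43, 9.55 and 18.9 CPM at timepoint 1, 21.3, 27.5 and 29.6 CPM at timepoint 2 and 2.95, 80.6 and 71.9 CPM at timepoint 3 (log2 fold change 1.85, SE 0.65, adjusted p = 0.078 with all 6 libraries; 2.53, adjusted p = 9.4e-05 without replicate 1). CHAC1, which degrades glutathione, was at 1.72, 1.1 and 3.34 CPM at timepoint 1 and 1.11, 11.3 and 7.26 CPM at timepoint 3 (adjusted p = 0.1; 2.15, adjusted p = 0.012 without replicate 1). Replicate 1 was below all of timepoint 1 for ATF3 and level with its lowest library for CHAC1, while replicates 2 and 3 were above every library of timepoint 1. ASNS, asparagine synthetase, was at 76.5, 57.7 and 72.2 CPM at timepoint 1 and 60.1, 136 and 221 CPM at timepoint 3 (log2 fold change 0.96, SE 0.30, adjusted p = 0.046; 1.38, adjusted p = 2.4e-04 without replicate 1; adjusted p = 0.14 with no replicate block). The ATF4 composite element TGATGNAA was searched on both strands. It was in 3 of the 28 tested members with a promoter entry (10.7%) and in 3.19% of all promoters. Of the 10 risen members with an entry it was in 1 (10%). That promoter, of ASNS, is shown from chr7:97872429-97872516, minus strand, with the element in capitals 68 bases before the start.
ASNS: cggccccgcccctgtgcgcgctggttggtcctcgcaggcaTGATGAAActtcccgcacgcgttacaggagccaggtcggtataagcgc

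**Figure D3:**
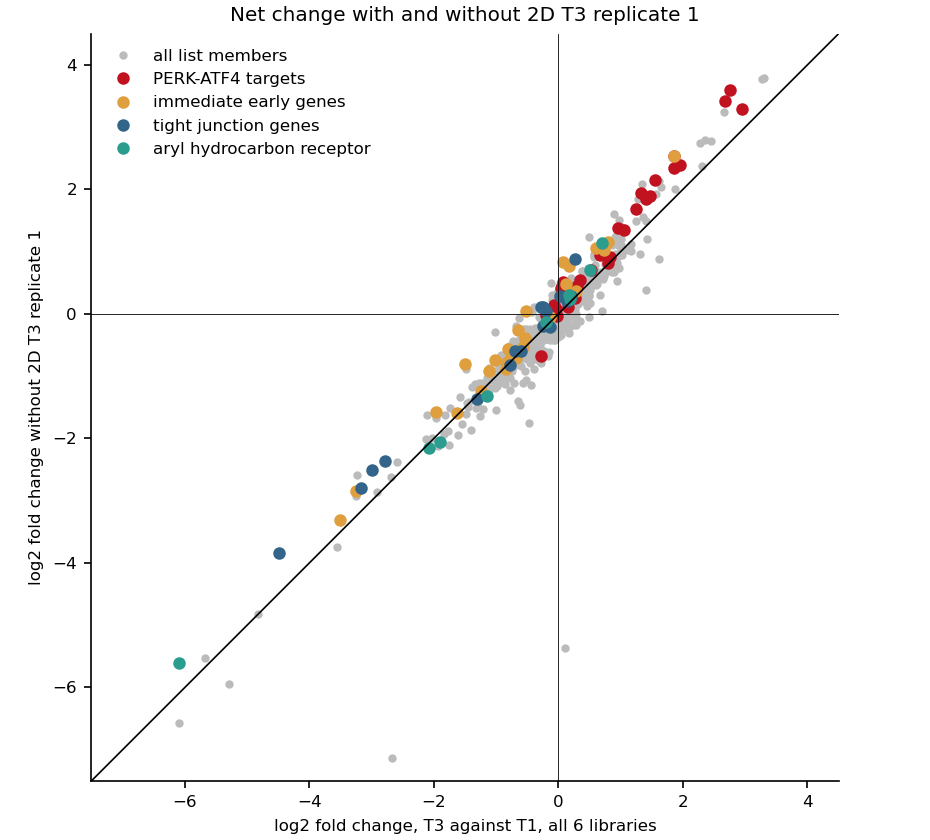
Log2 fold change, timepoint 3 against timepoint 1, with all 6 libraries (x axis) and without replicate 1 (y axis) for the members of the gene lists, with 4 lists in colour and the line of equal values. Most PERK-ATF4 targets lie above the line, with DDIT3 at 1.86 and 2.35, and so do most immediate early and tight junction genes, many of them below 0 on both axes.

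Of 23 ATF6 targets and chaperones, another branch of the unfolded protein response, 6 fell and none rose, with a median of -0.38; 5 fell without replicate 1 and 1 with no replicate block. HSPA5, the lumenal chaperone BiP, was at 175, 217 and 113 CPM at timepoint 1 and 77.7, 66 and 58.8 CPM at timepoint 3 (log2 fold change -1.28, SE 0.19, adjusted p = 4.5e-04; -1.32, adjusted p = 0.0024 without replicate 1). The secreted chaperone MANF fell by 0.59, from 118, 94.8 and 95.4 to 81.1, 51.8 and 75.1 CPM (adjusted p = 0.17 with no replicate block). Among 22 heat shock genes 5 rose and 1 fell, without replicate 1, 4 rose and 1 fell, and with no replicate block 1 rose and 1 fell. The small heat shock protein CRYAB rose from 2.9, 0.981 and 2.48 to 6.36, 4.66 and 13.1 CPM (log2 fold change 1.87, SE 0.42, adjusted p = 0.0088), and the co-chaperone BAG3 fell by 0.53. None of 26 proteasome genes was called, and 1 was lower without replicate 1.

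Sterol and fatty acid synthesis genes fell in part. Of 24 sterol genes 8 fell and 1 rose, with a median of -0.22; without replicate 1, 8 fell and none rose, and with no replicate block 4 fell. LSS, lanosterol synthase, was at 169, 209 and 208 CPM at timepoint 1 and 96.5, 141 and 117 CPM at timepoint 3 (log2 fold change -0.74, SE 0.10, adjusted p = 1.9e-04; adjusted p = 0.06 with no replicate block), and FDPS, farnesyl diphosphate synthase, at 1687, 1373 and 1993 CPM at timepoint 1 and 990.5, 765 and 1052 CPM at timepoint 3 (log2 fold change -0.85, SE 0.12, adjusted p = 3.8e-04). HMGCS1 and INSIG1, of the same list, had overlapping groups and adjusted p values of 0.22 and 0.76. Of 13 fatty acid genes 5 fell and 1 rose, and without replicate 1, 6 fell and none rose. ACSS2, which makes acetyl-CoA from acetate, went from 167, 146 and 199.8 to 67.6, 80.6 and 85.4 CPM (log2 fold change -1.13, SE 0.12, adjusted p = 3.2e-05). ACACA, acetyl-CoA carboxylase, rose by 0.72, and did not pass without replicate 1 (adjusted p = 0.055) or with no replicate block (adjusted p = 0.056).

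Redox genes and p53 targets were mixed. GCLC, the rate-limiting enzyme of glutathione synthesis, was at 347, 375 and 231 CPM at timepoint 1 and 158, 105 and 89.9 CPM at timepoint 3 (log2 fold change -1.45, SE 0.13, adjusted p = 4.9e-06), and TXNRD1, thioredoxin reductase, fell by 0.96 (adjusted p = 0.087 with no replicate block). In the 24 NRF2 and glutathione genes 2 fell and 3 rose, where 6.65% of all genes tested fell and 6.61% rose. Without replicate 1, 2 fell and 2 rose, beside 5.13% and 5.38% of all genes tested. With no replicate block 1 fell and 1 rose, beside 3.04% and 2.25%. Of 26 p53 targets 7 fell and 2 rose, and without replicate 1, 6 fell and 5 rose; with no replicate block 3 fell and 1 rose. GADD45A fell from 72.4, 72.1 and 84.5 to 19.7, 21 and 16 CPM (log2 fold change -2.03, SE 0.19, adjusted p = 9.7e-06). CDKN1A, the cell cycle inhibitor p21, was at 252, 169 and 246 CPM at timepoint 1 and 124, 264 and 268 CPM at timepoint 3 (adjusted p = 0.91), replicate 1 being the lowest of all 6 libraries. Of 30 interferon response genes 4 fell and 1 rose, where 6.65% of all genes tested fell and 6.61% rose. Without replicate 1, 4 fell and 2 rose, and with no replicate block 3 fell and none rose. IFIT3 was at 7.36, 7.63 and 7.65 CPM at timepoint 1 and 2.87, 2.74 and 2.59 CPM at timepoint 3 (log2 fold change -1.47, SE 0.18, adjusted p = 1.0e-04).

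Of 34 genes of ribosome biogenesis 11 rose and none fell, with a median of 0.28; 6 rose without replicate 1 and 2 with no replicate block. POLR1B, a subunit of RNA polymerase I, was at 82.1, 78 and 78.8 CPM at timepoint 1 and 132, 110.0 and 146 CPM at timepoint 3 (log2 fold change 0.69, SE 0.10, adjusted p = 4.4e-04), and the assembly factor RRS1 at 7.68, 6.85 and 9.46 CPM at timepoint 1 and 13.5, 12.9 and 14.7 CPM at timepoint 3 (log2 fold change 0.79, SE 0.12, adjusted p = 5.3e-04). The nucleolar protein NOP56 rose by 0.76 (adjusted p = 0.12 with no replicate block). All 40 cytosolic ribosomal protein genes had a log2 fold change above 0 under TMM, RLE and upper-quartile scaling, with a median of 0.26 under TMM, and none was called. The 13 genes of the mitochondrial genome all had negative log2 fold changes (median -0.60). Of these 3 fell, MT-ATP8, MT-ATP6 and MT-CO3, and none without replicate 1 or with no replicate block. MT-ATP6 was at 666, 554 and 351 CPM at timepoint 1 and 357, 268 and 258 CPM at timepoint 3 (log2 fold change -0.81, adjusted p = 0.042). None of 30 nuclear genes of oxidative phosphorylation was called. The glycolytic enzyme HK2 rose from 9.81, 13.4 and 13.3 to 19.7, 23.1 and 24.6 CPM (log2 fold change 0.89, SE 0.12, adjusted p = 1.9e-04).

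Clock and glucocorticoid genes changed without one direction. BMAL1, the core activator of the clock, was at 105, 97.1 and 141 CPM at timepoint 1 and 78.4, 50.1 and 69.4 CPM at timepoint 3 (log2 fold change -0.80, SE 0.14, adjusted p = 0.0014), while its repressor PER1 rose from 80, 94.4 and 77.3 to 107, 229 and 177 CPM (log2 fold change 0.97, SE 0.15, adjusted p = 5.7e-04; adjusted p = 0.052 with no replicate block). NFIL3 rose by 1.36, and HLF, with no count at timepoint 1, was at 0.378, 1.16 and 0.281 CPM at timepoint 3 (adjusted p = 0.0033). Of 19 clock genes 5 rose and 4 fell, without replicate 1, 6 and 3, and with no replicate block 3 and 1. Of 15 glucocorticoid response genes 3 rose and 3 fell with or without replicate 1, and with no replicate block 1 and 3. SGK1, a kinase induced by glucocorticoids and serum, was at 36.3, 41 and 26.3 CPM at timepoint 1 and 81.2, 92.7 and 96 CPM at timepoint 3 (log2 fold change 1.40, SE 0.17, adjusted p = 8.1e-05), and ANGPTL4, an inhibitor of lipoprotein lipase, at 641, 522 and 517 CPM at timepoint 1 and 206, 156 and 135 CPM at timepoint 3 (log2 fold change -1.77, SE 0.22, adjusted p = 1.1e-04).

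Several of the largest changes fell outside these lists. FGD2, an exchange factor for CDC42, was at 1.68, 3.06 and 5.89 CPM at timepoint 1 and 0, 0 and 0.0402 CPM at timepoint 3 (adjusted p = 4.9e-06), so 2 of the 3 later libraries had no count. APOBEC3B, a DNA cytidine deaminase, stepped down at each timepoint, with 10.5, 9.28 and 17.7 CPM at timepoint 1, 2.96, 1.78 and 3.5 CPM at timepoint 2 and 0.932, 0.406 and 1.34 CPM at timepoint 3 (log2 fold change -3.83, SE 0.24, adjusted p = 2.7e-07). The tubulin-binding protein TPPP fell by 4.36, the T-cell signalling factor NFATC2 fell by 3.62 (-2.98 without replicate 1) and the signalling adaptor THEMIS2 fell by 3.58. The bradykinin receptors rose. BDKRB1 was at 0.236, 0.135 and 0.484 CPM at timepoint 1 and 5.3, 1.57 and 2.06 CPM at timepoint 3 (log2 fold change 3.38, SE 0.49, adjusted p = 3.7e-04; 2.63, adjusted p = 8.8e-04 without replicate 1), with replicate 1 the highest, and BDKRB2 at 1.48, 1.61 and 1.83 CPM at timepoint 1 and 6.83, 6.59 and 6.92 CPM at timepoint 3 (log2 fold change 2.06, SE 0.17, adjusted p = 2.4e-06), with 3 near-equal later values.

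Other genes with large rises were the adhesion molecule NFASC (3.05 on the log2 scale), the adaptor SAMSN1 (3.01), the chemerin receptor CMKLR2 (2.84), the surfactant protein SFTPB (2.83), the spindle orientation adaptor INSC (2.45), the innate receptor TREM1 (2.29), MXRA8 (2.19) and SLAMF7 (2.02). The naming rule took only genes that passed with and without replicate 1; these 8 also passed with no replicate block. Among noncoding genes NR4A1AS fell by 3.42, THBS1-AS1 by 2.68 and ENSG00000249007 by 3.13, and LINC00963 rose from 43, 41.7 and 39.9 to 99.5, 110.0 and 84.7 CPM, AL596244.1 by 1.99 and ENSG00000262429 by 1.54. Whether counting used strand is not stated, so reads of NR4A1AS and THBS1-AS1 cannot be told from those of the genes they overlap.

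**Figure D4:**
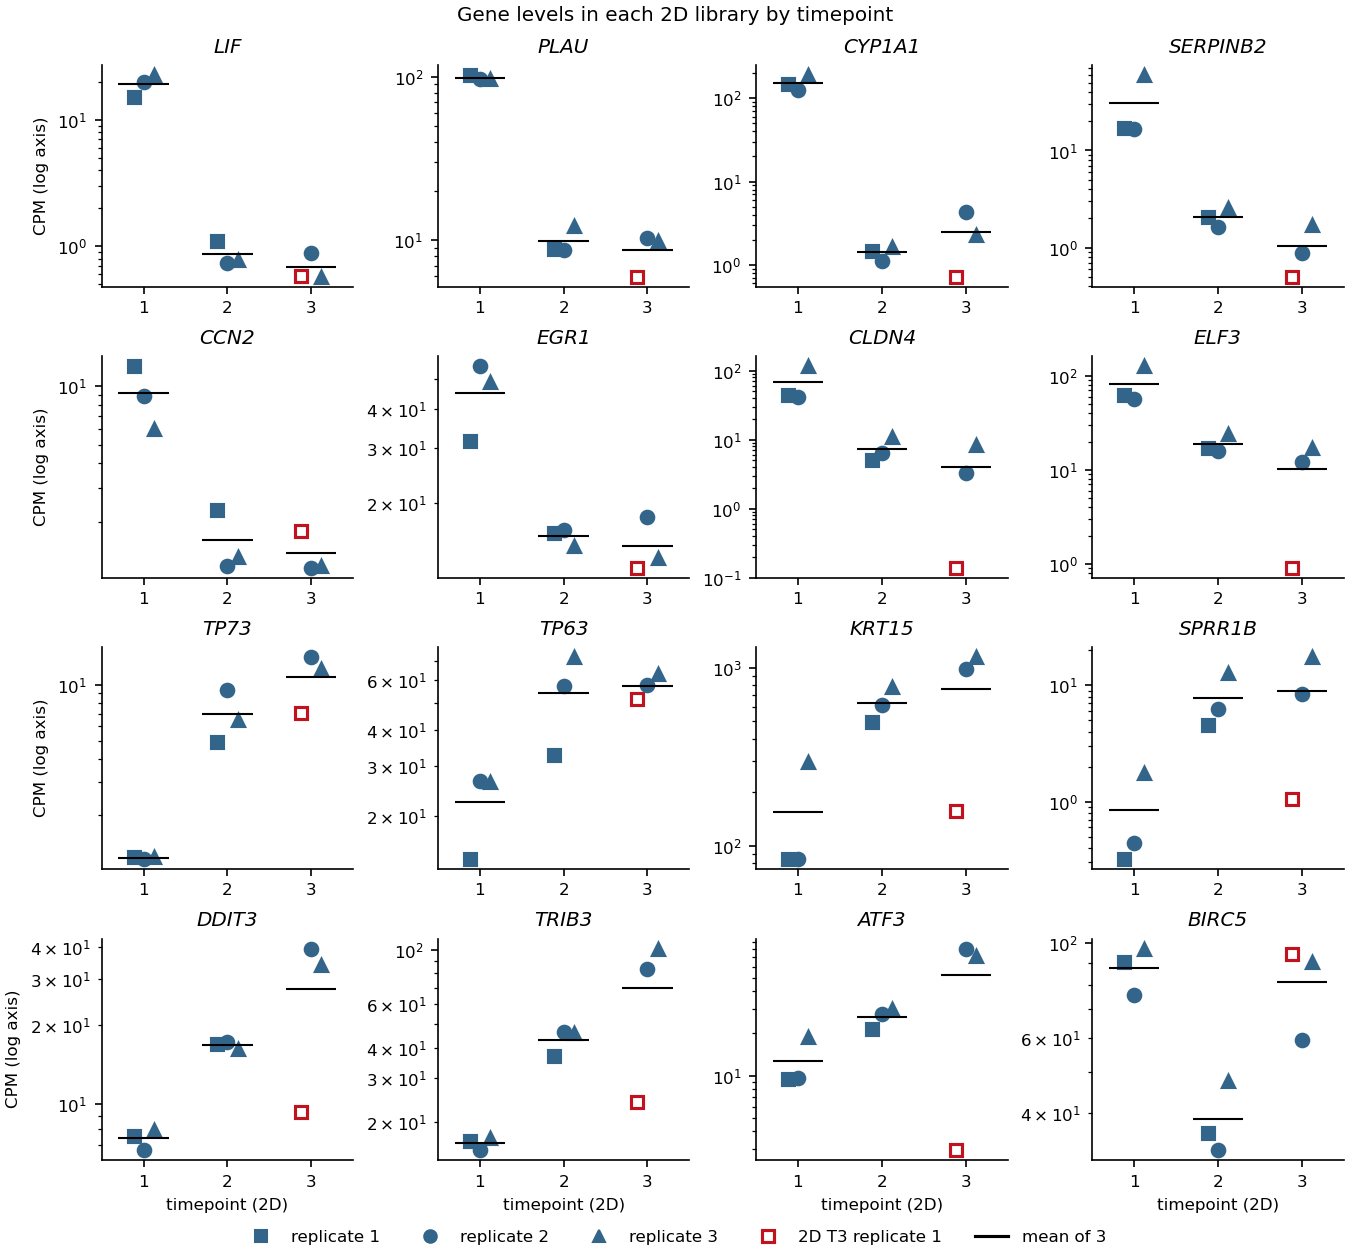
Level of 16 genes in CPM (y axes, log scale, each panel its own range) in each 2D library by timepoint (x axes), with a shape for each replicate, an open red square for the library labelled 2D T3 replicate 1 and a line at the mean of 3. LIF, PLAU and CYP1A1 were low from timepoint 2 on; in KRT15, SPRR1B, DDIT3, TRIB3 and ATF3 the open square lies below the other libraries of timepoint 3; BIRC5 dips at timepoint 2.

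Few genes were called after timepoint 2. Between timepoints 1 and 2, 2434 of 18111 genes were called (13.4%), 1168 higher (6.45%) and 1266 lower (6.99%). From timepoint 2 to 3 only 17 were called (0.0939%), 13 higher (0.0718%) and 4 lower (0.0221%), 7 without replicate 1 (0.0377%) and none with no replicate block, where 797 had an unadjusted p under 0.05; DESeq2 called 210. These comparisons share the libraries of timepoint 2 with each other or those of timepoint 1 with the net change, so their values are set side by side. LIF was at 1.09, 0.741 and 0.778 CPM at timepoint 2 and PLAU at 8.8, 8.76 and 12.3 CPM, both close to their level at timepoint 3. Of the 34 PERK-ATF4 targets none was called from timepoint 2 to 3 with all libraries, with a median log2 fold change of 0.31. Without replicate 1, 2 of them were called, both higher, with a median of 0.53. The 4 genes that fell late, named after their values were seen, were APOBEC3B, the myosin light chain MYL9, the mast cell receptor MILR1 and ENSG00000230387. The last did not pass without replicate 1 (adjusted p = 0.12). MYL9 was at 5.85, 4.3 and 9.72 CPM at timepoint 1, 6.87, 7.4 and 9.54 CPM at timepoint 2 and 2.34, 2.9 and 4.21 CPM at timepoint 3 (log2 fold change from timepoint 2 to 3 -1.37, adjusted p = 0.014, and 0.1 without replicate 1).

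The cell cycle genes were lower at timepoint 2, and the medians of their lists rose again by timepoint 3. Of 41 genes of G1-S and DNA replication 23 fell and 1 rose from timepoint 1 to 2, with a median of -0.56. From timepoint 2 to 3 the median was 0.49, with 3 called, all higher; without replicate 1 it was 0.32, with none called. Over the whole course 3 rose and none fell, with a median of -0.02 (-0.24, 3 higher and 3 lower, without replicate 1). Of 34 genes of G2-M and mitosis 13 fell to timepoint 2, with a median of -0.84, and the median from timepoint 2 to 3 was 0.62, with 1 called; without replicate 1 it was 0.35, with 1 called. Over the whole course 1 fell, with a median of -0.28 (-0.60 without replicate 1).

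BIRC5, the mitotic regulator survivin, was at 90.3, 75.7 and 97.2 CPM at timepoint 1, 35.9, 32.8 and 47.6 CPM at timepoint 2 and 94.4, 59.3 and 90.3 CPM at timepoint 3 (log2 fold change -1.19 and then 1.07, adjusted p = 3.7e-05 and 0.0059; the later change was 0.91, adjusted p = 0.032 without replicate 1). It was named after its values were seen, as were MCM7, a subunit of the replicative helicase, at 315, 288 and 416 CPM at timepoint 1, 147, 149 and 198 CPM at timepoint 2 and 274, 227 and 334 CPM at timepoint 3, and TUBB4B, a beta tubulin, at 212, 170.5 and 252 CPM at timepoint 1, 153, 142 and 194 CPM at timepoint 2 and 295, 232 and 316 CPM at timepoint 3. From timepoint 2 to 3 MCM7 and TUBB4B did not pass without replicate 1 (adjusted p = 0.11 and 0.066). MCM7 did not pass over the whole course (adjusted p = 0.12) and TUBB4B did (log2 fold change 0.42, adjusted p = 0.018, and 0.082 without replicate 1). CCNE1, cyclin E1, which drives entry into S phase, rose from 10.5, 8.74 and 12.5 to 21.7, 14.3 and 16.9 CPM (log2 fold change 0.74, SE 0.13, adjusted p = 0.0014; adjusted p = 0.072 with no replicate block). CCND1, cyclin D1, was at 75.4, 76.6 and 82.1 CPM at timepoint 1 and 70.4, 58.6 and 57.3 CPM at timepoint 3 and did not pass (adjusted p = 0.12), and MKI67 had overlapping groups (adjusted p = 0.86).

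**Figure D5:**
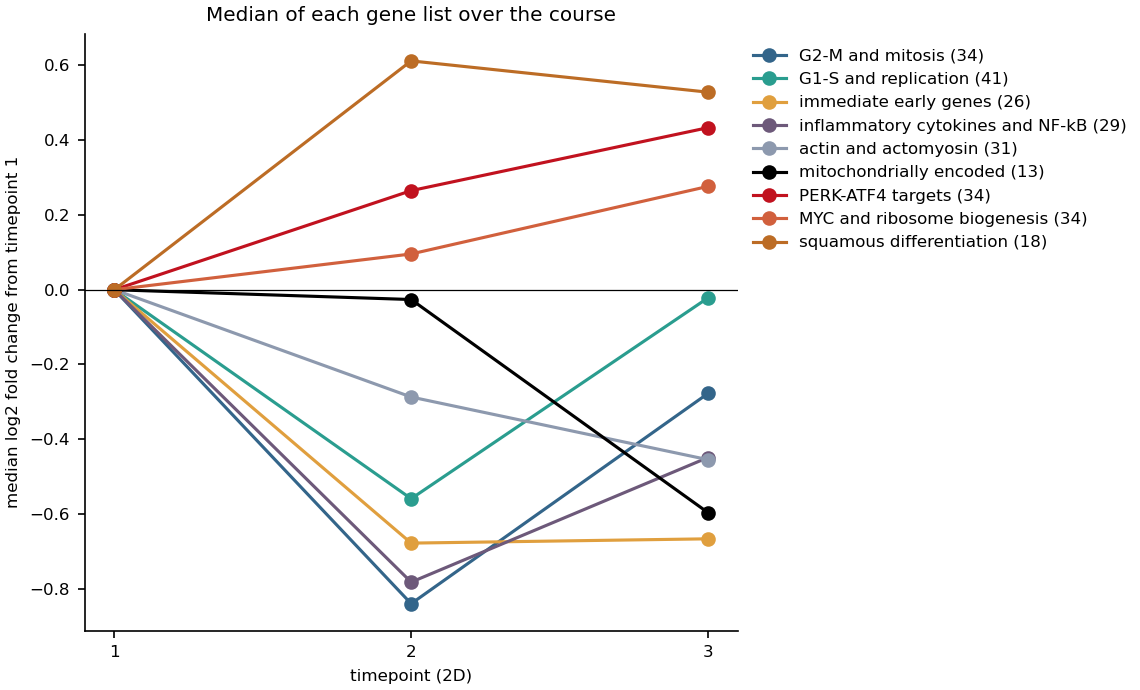
Median log2 fold change from timepoint 1 (y axis) of the members of 9 gene lists at timepoints 1, 2 and 3 in 2D culture (x axis), from the fit of all 18 libraries, with the number of members tested in brackets. The cell cycle lists reach -0.56 and -0.84 at timepoint 2 and -0.02 and -0.28 at timepoint 3, PERK-ATF4 targets are at 0.27 and then 0.43, and mitochondrially encoded genes at -0.03 and then -0.60.

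Whether the net change differed between cultures depended on the library labelled 2D T3 replicate 1. The test of the difference (2D change minus 3D change) called 0 of 18111 genes (0%) with all libraries by edgeR, with 1965 at an unadjusted p under 0.05; DESeq2 called 136 and limma-voom 0. Without replicate 1 edgeR called 290 of 18592 genes (1.56%), with a more positive change in 2D at 190 (1.02%) and a more negative one at 100 (0.538%). With no replicate block and without replicate 1 the count was 34.

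Without replicate 1, 15 of the 34 PERK-ATF4 targets and 9 of the 26 immediate early genes had a more positive change in 2D, and none a more negative one. The lists' medians over the course were 0.62 and -0.54 in 2D without replicate 1, and -0.21 and -1.75 in 3D from the same fit. ATF3 changed by 2.53 in 2D and by -2.12 in 3D (difference 4.65, SE 0.39, adjusted p = 1.2e-04, and adjusted p = 0.29 with all libraries). In 3D ATF3 was at 13.2, 10.9 and 24.4 CPM at timepoint 1 and 3.73, 3.59 and 3.29 CPM at timepoint 3, close to the 2.95 CPM of 2D T3 replicate 1. FOS had a difference of 1.70 (adjusted p = 9.8e-04), and DDIT3 one of 1.92 (adjusted p = 0.0024).

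Of the 17 tight junction genes 5 had a more positive change in 2D, as did 5 of the 15 fate factors, and none a more negative one. ELF3 fell by 2.59 in 2D without replicate 1 and fell by 6.77 in 3D in the same fit (difference 4.18, adjusted p = 9.8e-04), and CLDN1 by 2.51 and 4.31 (difference 1.80, adjusted p = 0.0013). The cell cycle lists had differences of the other sign, with 4 of 34 G2-M genes and 3 of 41 G1-S genes more negative in 2D. CKS2, a subunit of cyclin-dependent kinases, changed by 0.18 in 2D without replicate 1 and by 1.55 in 3D (difference -1.37, adjusted p = 0.012). With all libraries none of these genes passed, with adjusted p values of 0.29, 0.36 and 0.3 in that order. For LIF, PLAU, CYP1A1, TP73, VCL and CCN2 the difference did not pass in either fit, and without replicate 1 it was 1.02, 0.82, 1.18, -0.11, 0.15 and 1.48 on the log2 scale.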

How the data were processed

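RNA of 18 MCF10A libraries was sequenced, and 6 of them (2D T1 and 2D T3) carry the comparison. The submitters' processing notes name STAR 2.7.1a, HOMER, edgeR and limma and the build hg38; how reads were assigned is not given here. The authors deposited whole-number counts per gene for all libraries and a log2 CPM table, which lacks 2D T3 replicate 1; its values are a transform of the same counts, and it was used only to check that they match. From the counts, edgeR 4.0.16 in R 4.3.3 fitted all 18 libraries (TMM, filterByExpr, quasi-likelihood test, a term for each group, the replicate number as a block), with Benjamini-Hochberg adjustment and a threshold of 0.05. Standard errors are the fold change over the root of F. CPM values were computed from the counts and TMM library sizes. The block was used because each replicate number carries 1 date in the labels, shared by all groups; the deviations of same-numbered 2D T1 and T3 libraries correlated at 0.32, 0.01 and 0.29, and those of differently numbered ones at -0.38 to 0.20, so replicate 2 shows no shared deviation. DESeq2 1.42.0 and limma 3.58.1 served as alternatives. The members and lists were chosen with earlier results of these data known. Named genes were up to 12 higher and 12 lower protein-coding and 3 and 3 other genes of largest change that passed with and without 2D T3 replicate 1, had groups without overlap and averaged 100 counts or more, up to 4 members of smallest p in each list, and a fixed panel; genes named otherwise are marked in the text, and a few genes the rule gives are not reported here. Promoters are from RefSeq (GRCh38.p14).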

Additional observations from a re-analysis of the deposited data

How the results depend on the processing

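For timepoint 3 against 1, 2402 genes were called. The count was 958 with no replicate block, 903 with no replicate block and without 2D T3 replicate 1, 475 when only the groups compared entered the fit, and 919 with a fold of at least 2 required. Leaving out 1 library at a time gave 1374 to 1954, with 1597 without 2D T3 replicate 2 and 1374 without 2D T3 replicate 3. For timepoint 2 against 1 the main count was 2434, and these settings gave 998, 1092, 644 and 922, and 1435 to 2539 with 1 library left out. For timepoint 3 against 2 the 17 calls became 0 with no replicate block, with or without 2D T3 replicate 1, and 0 with the compared groups alone. DESeq2 gave 210, no filter on low counts 30, a stricter filter 28 and the fold rule 5, with 0 to 23 when 1 library was left out. For the difference between cultures the count of 0 became 34 with no replicate block and without 2D T3 replicate 1, 136 by DESeq2 and 14 with no filter, with 0 to 290 when 1 library was left out. The cause was not tested. Of 149 called named genes 64 kept their call under every alternative other than the fold rule, and none of the 149 reversed under them. The deposited counts exceed the header totals, so counting error could not be given.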
